A study of Mus musculus with 2 samples.

Results

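Milk carries antibody made by plasma cells of the mother, and 9 genes of this route were examined in lactating mouse mammary gland. They were named by their roles, but with earlier results of these data known. *Pigr* and *Fcgrt* encode the epithelial receptors for antibody, *Ccl28* and *Ccr10* encode a chemokine and its receptor, *Igj* encodes the joining (J) chain, and *Cd79a*, *Cd79b*, *Ms4a1* and *Pou2af1* are B cell genes. Rows were taken by exact match of the gene symbol, which found 8 of the 9 genes among 25810 rows with a symbol, and *Ccl28* was not analysed here.

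The samples were 2 RNA-seq libraries of inguinal gland cells at lactation day 3, 1 from wild-type (WT) mice and 1 from *Igfbp7*-/- mice, in which the first exon of *Igfbp7* was deleted in every cell of the body. The labels give the strain as C57BL/6, while the methods of the study name CD1. Both libraries came from cells depleted by 3 rounds of magnetic selection of blood lineage cells (CD45+, Ter119+) and endothelial cells (CD31+, written CD35 in the labels). The number of mice behind each library was not given in the sources used here. With 1 library per genotype no difference has a replicate check, so differences between the libraries cannot be told apart from differences between preparations.

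In the lactating gland IgA-secreting plasma cells settle beside the alveoli, drawn by the chemokine CCL28, which epithelial cells secrete and which the receptor CCR10 on those plasma cells recognises. The J chain links IgA or IgM into polymers, and the polymeric immunoglobulin receptor, product of *Pigr*, binds these polymers at the basal side of the alveolar cell and carries them into milk. The neonatal Fc receptor, whose heavy chain *Fcgrt* encodes and whose light chain is β2-microglobulin (*B2m*), binds IgG. CD79A and CD79B are the signalling chains of the B cell receptor, *Ms4a1* encodes the B cell surface protein CD20, and *Pou2af1* encodes OBF-1, a coactivator that works with octamer-binding factors on antibody gene promoters.

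The WT library held 34327854 reads and the *Igfbp7*-/- library 35016847, of which 82.3% and 72.3% lay on rows with a gene symbol. *Igfbp7* itself had 5224 reads in the WT library, or 152 reads per 1000000 reads of the library (RPM), and 37 reads (1.06 RPM) in the *Igfbp7*-/- library. Levels are given as RPM, and as RPKM (RPM per kilobase of transcript) where genes are compared with each other. A gene was called lower or higher when its RPM differed by at least 1.5 times, after 0.1 RPM was added to each value, and when at least 1 library reached 1 RPM. By this rule 3231 of 14026 genes (23.0%) were lower and 3006 (21.4%) were higher in the *Igfbp7*-/- library. Other scalings shifted that balance. With reads on listed genes as the total, the median log2 ratio over all genes moved from 0.03 to 0.22 and the split became 2712 lower against 4463 higher. With listed genes other than ribosomal and small RNA as the total, the median was 0.23 and the split 2693 against 4583. With the 20 most abundant genes left out of the total, the median was -0.11 and the split 4040 against 2413. Intervals are 95% and cover counting error only. They treat 2 reads as 1 pair, since 75.8% and 74.1% of counts from 1 to 20 were even.

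Of the 9 genes, 8 had a row, 7 reached the minimum of 1 RPM, 5 were lower, 0 were higher, and 2 were within 1.5 times. All 5 lower genes belong to B cells or plasma cells, and both genes within 1.5 times encode epithelial receptors. The background for these counts is 23.0% lower and 21.4% higher over all genes. Of the 5 lower genes, *Cd79a*, *Cd79b* and *Ms4a1* reached the minimum only through the WT library, so their count is a description of the rule as well as of the genes. The bulk libraries do not separate fewer cells of a type from less RNA per cell. They also do not show which cells the reads of *Fcgrt* or another gene came from.

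**Figure D1:**
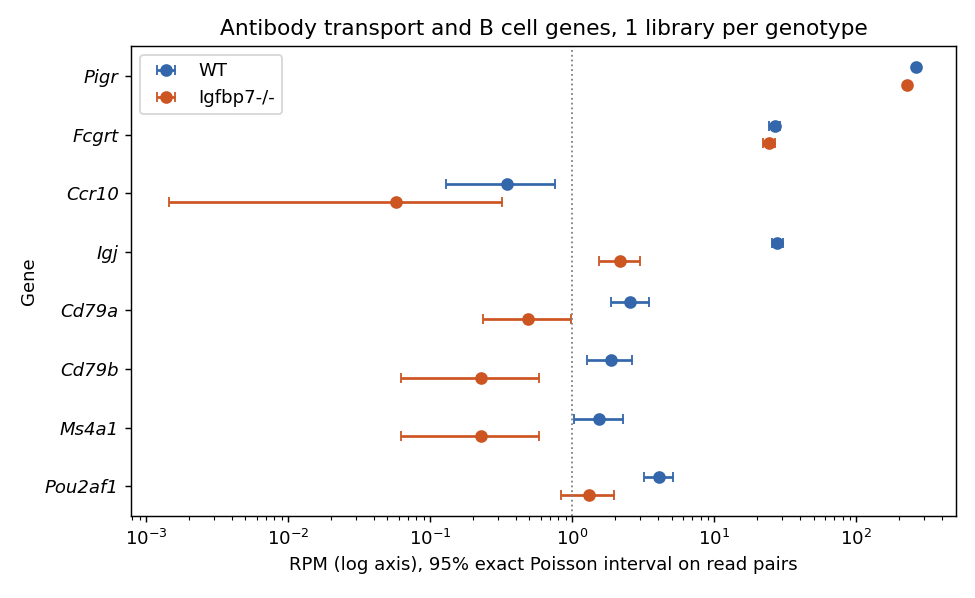
Level of each gene in RPM on a log axis, with the WT library in blue and the *Igfbp7*-/- library in orange, bars giving 95% exact Poisson intervals on read pairs and the dotted line the minimum of 1 RPM. The points of *Pigr* and *Fcgrt* lie side by side, while those of *Igj*, *Cd79a*, *Cd79b*, *Ms4a1* and *Pou2af1* lie apart with intervals that do not overlap.

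*Pigr*, the receptor that carries polymeric IgA and IgM into milk, had 9055 reads in the WT library and 8009 in the *Igfbp7*-/- library. These are 264 RPM (256 to 272) and 229 RPM (222 to 236). The WT value was 1.15-fold higher (interval 1.11 to 1.20), a log2 ratio of -0.21, and 37.7% of all genes had a lower ratio. The intervals of the levels did not overlap, but the size of the difference depended on the scaling, from -0.35 without the 20 most abundant genes to -0.01 with listed genes other than ribosomal and small RNA as the total. *Pigr* stood higher per length than every other gene of the 8 in both libraries, with 68.5 RPKM (66.6 to 70.6) in WT and 59.4 RPKM (57.6 to 61.3) in *Igfbp7*-/-. The genes nearest to it in level in both libraries, by Euclidean distance of log2 RPM over the 2 libraries, were *Abl2* (0.01), *Surf4* (0.03) and *Jag1* (0.04), which says only that their levels were alike.

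The *Pigr* gene lies on the plus strand at chr1:132723261-132748826 (NCBIM37, the build the labels call mm9). Its promoter and those of *Igj*, *Cd79a* and *Pou2af1* are shown to set the epithelial receptor that differed little beside 3 B lineage genes that were lower. They come from RefSeq (GRCm38.p6), run from 250 bases before to 50 bases after the start of transcription on the gene's own strand, and were found for 5 of the 8 genes, the other being *Fcgrt*. *Ccr10*, *Cd79b* and *Ms4a1* had no promoter entry. Capitals mark a match to one of 5 motifs, searched on both strands: the octamer ATGCAAAT, the core bound by EBF factors CCCNNGGG, the STAT site GAS TTCNNNGAA, the interferon response core GAAANNGAA and the E-box CACGTG. The GAS and the interferon core can share bases.
Pigr, chr1:130826434-130826733, plus strand: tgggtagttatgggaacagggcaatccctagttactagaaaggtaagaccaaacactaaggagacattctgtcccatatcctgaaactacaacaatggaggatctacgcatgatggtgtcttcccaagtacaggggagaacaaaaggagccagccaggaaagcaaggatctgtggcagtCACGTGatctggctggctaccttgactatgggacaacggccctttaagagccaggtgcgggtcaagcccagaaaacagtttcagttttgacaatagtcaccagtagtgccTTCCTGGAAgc
Igj, chr5:88527848-88528147, minus strand: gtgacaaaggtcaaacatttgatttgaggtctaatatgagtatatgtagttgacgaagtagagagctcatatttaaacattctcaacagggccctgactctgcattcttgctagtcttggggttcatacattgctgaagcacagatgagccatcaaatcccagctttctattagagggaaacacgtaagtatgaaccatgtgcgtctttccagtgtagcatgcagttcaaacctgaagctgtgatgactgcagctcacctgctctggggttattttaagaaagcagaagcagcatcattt
Cd79a, chr7:24897247-24897546, plus strand: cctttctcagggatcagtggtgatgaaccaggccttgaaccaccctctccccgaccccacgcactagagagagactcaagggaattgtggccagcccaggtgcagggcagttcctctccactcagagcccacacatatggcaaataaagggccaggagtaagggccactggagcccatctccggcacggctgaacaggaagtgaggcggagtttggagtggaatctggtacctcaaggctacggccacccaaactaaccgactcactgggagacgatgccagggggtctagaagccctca
Pou2af1, chr9:51213440-51213739, plus strand: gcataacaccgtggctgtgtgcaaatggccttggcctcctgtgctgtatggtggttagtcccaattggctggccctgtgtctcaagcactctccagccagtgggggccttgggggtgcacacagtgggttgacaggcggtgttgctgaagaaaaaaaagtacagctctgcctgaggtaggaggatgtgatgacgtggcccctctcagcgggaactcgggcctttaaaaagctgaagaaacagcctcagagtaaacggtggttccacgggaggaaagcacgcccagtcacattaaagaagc

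The *Pigr* window held the E-box starting 71 bases before the start of transcription (at -71) and the GAS TTCCTGGAA starting at base 40 of the transcript. An E-box of these letters was in 7.15% of the 32851 RefSeq promoter windows of the same length, and a GAS in 8.30%. The *Fcgrt* window, at chr7:45103773-45104072 on the minus strand, held the EBF core CCCAAGGG starting at -16, a motif found in 13.7% of windows. The octamer (1.74% of windows) and the interferon core (8.56%) were in none of the 5 windows, and no motif of the 5 was in those of *Igj*, *Cd79a* or *Pou2af1*. These are matches of letters only. GC content was 49% for *Pigr*, 53.3% for *Fcgrt*, 42.3% for *Igj*, 58.3% for *Cd79a* and 55.3% for *Pou2af1*.

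*Fcgrt* (minus strand, chr7:52348363-52359192), the heavy chain of the neonatal Fc receptor, had 913 reads in WT and 856 in *Igfbp7*-/-. Its level was 26.6 RPM (24.2 to 29.2) against 24.4 RPM (22.2 to 26.9), and the intervals overlapped. The log2 ratio was -0.12 with an interval from -0.32 to 0.07. Its sign turned with 2 of the scalings, to 0.07 when listed genes and to 0.08 when listed genes other than ribosomal and small RNA were the total. It was within 1.5 times in all 13 alternative settings, but those of the minimum, fold and interval rule left the ratio unchanged. Its light chain partner *B2m*, which also serves MHC class I on most cells, was lower, with 970 RPM in WT against 480 RPM in *Igfbp7*-/-. Reads of *Fcgrt* per read of *B2m* were therefore 1.86 times as high in *Igfbp7*-/- (1.62 to 2.13). The interval for the change in the ratio of *Pigr* to *Fcgrt* held 1, with 9.92 reads of *Pigr* per read of *Fcgrt* in WT and 9.36 in *Igfbp7*-/-, the second being 0.943 times the first (0.820 to 1.09).

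The epithelial genes did not move together, and those set beside the 2 receptors lay on either side of them. *Krt8*, a luminal keratin, was 268 RPM in WT against 789 RPM in *Igfbp7*-/-, and *Epcam*, an epithelial surface protein, was 338 and 482 RPM, within 1.5 times like the receptors. The basal keratins were lower, with log2 ratios of -1.67 for *Krt5*, -1.13 for *Krt14* and -1.08 for *Krt17*. The keratins *Krt7* (2.90), *Krt18* (2.23) and *Krt19* (1.47) and the junction gene *Cldn3* (2.17) were higher. Of the 13 listed epithelial genes 7 were higher and 3 lower, against 21.4% and 23.0% over all genes. *Krt14*, *Krt17* and *Krt19* were named after their values were seen. *Csn2*, which encodes β-casein, had 53087 RPM in WT against 19970 RPM in *Igfbp7*-/-. Against these, reads of *Pigr* per read of *Epcam* were 0.609 times as high in *Igfbp7*-/- (0.576 to 0.643). Per read of *Krt8* they were 0.295 times, per read of *Krt18* 0.185 times, and per read of *Csn2* 2.31 times (2.21 to 2.41). Reads of *Fcgrt* per read of *Epcam* were 0.645 times as high (0.561 to 0.740), and per read of the endothelial gene *Pecam1* 3.33 times (2.88 to 3.85). These ratios were chosen after the values were seen. The direction of the ratios of *Pigr* and *Fcgrt* thus depended on the gene taken as reference.

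The list of antibody transport genes held 19 genes, which include both receptors, *B2m* and the machinery that moves vesicles across an epithelial cell. All 19 reached the minimum, 1 was lower (*B2m*), 5 were higher and 13 were within 1.5 times. The count of higher genes is close to the share of 21.4% over all genes, while that of lower genes is below the 23.0% over all genes. Their median log2 ratio was 0.21, against 0.03 for all genes. *Myo5b*, the motor that moves recycling endosomes to the apical membrane, was 11.8 RPM in WT against 89.8 RPM in *Igfbp7*-/-. The other 4 higher genes were *Rab27b* (log2 ratio 1.03), *Vamp8* (0.85), *Rab17* (0.83) and *Rab3d* (0.78), vesicle traffic proteins, the last 2 of which were named after their values were seen. *Myo5b* thus differed far more than the receptors whose traffic this list describes.

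*Ccr10*, the receptor by which IgA plasma cells follow CCL28, was near the limit of detection. It had 12 reads in WT (0.35 RPM) and 2 in *Igfbp7*-/- (0.0571 RPM), so neither library reached the minimum. The ratio was 6.12-fold in favour of WT with an interval from 0.743 to 282, and no difference was detectable at this depth. *Ccr10* lies on the minus strand at chr11:101034311-101036757 and overlaps *Cntnap1* on the plus strand. Whether counting used the strand was not given in the sources used here, so reads of the pair may be mixed.

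Other homing genes had far more reads. Of 22 listed genes 21 had a row and 13 reached the minimum, 1 of them only through WT, with 7 lower, 3 higher and 3 within 1.5 times. Over all genes 23.0% were lower and 21.4% higher. The list's median log2 ratio was -1.65. *Cxcl9* and *Cxcl10*, chemokines that attract activated T cells, had log2 ratios of -4.39 (216 RPM in WT, 10.2 in *Igfbp7*-/-) and -2.75 (404 and 59.9 RPM). *Ccr7* and *Cxcr5*, receptors that place lymphocytes within lymph nodes, were -4.02 (62.8 and 3.77 RPM) and -3.10 (3.20 and 0.286 RPM). *Vcam1* and *Madcam1*, vessel proteins to which plasma cell integrins bind, were at -2.26 (535 and 111 RPM) and -2.59 (10.8 and 1.71 RPM). The 3 higher genes were *Ccl20* (1.41), *Itgb7* (0.99), an integrin chain that pairs with the chain encoded by *Itga4* (-1.65), and the B cell chemokine *Cxcl13* (0.74). These 3, *Itga4*, *Vcam1* and *Madcam1* were named after their values were seen. The homing genes therefore did not move as one group.

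*Igj*, whose J chain links IgA and IgM into the polymers that *Pigr* carries, showed the lowest ratio of the 8 genes. It had 951 reads in WT and 76 in *Igfbp7*-/-, or 27.7 RPM (25.3 to 30.3) against 2.17 RPM (1.54 to 2.98). The difference was 12.8-fold (9.17 to 18.3), a log2 ratio of -3.61, and 0.506% of all genes had a lower one. In WT, *Igj* at 13.1 RPKM (12.0 to 14.4) and *Fcgrt* at 15.3 RPKM (13.9 to 16.8) had overlapping intervals. In *Igfbp7*-/-, *Igj* at 1.03 RPKM (0.728 to 1.41) lay below *Fcgrt* at 14.1 RPKM (12.8 to 15.5). *Igj* lies on the minus strand at chr5:88949537-88956916, and the genes nearest to it in level over both libraries were *Wfdc12* (distance 0.25), *BC022687* (0.26) and *Tifa* (0.43). Of 13 alternative settings *Igj* was called lower in 13, with log2 ratios from -3.76 to -3.18. Those of the minimum, fold and interval rule left its ratio unchanged.

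**Figure D2:**
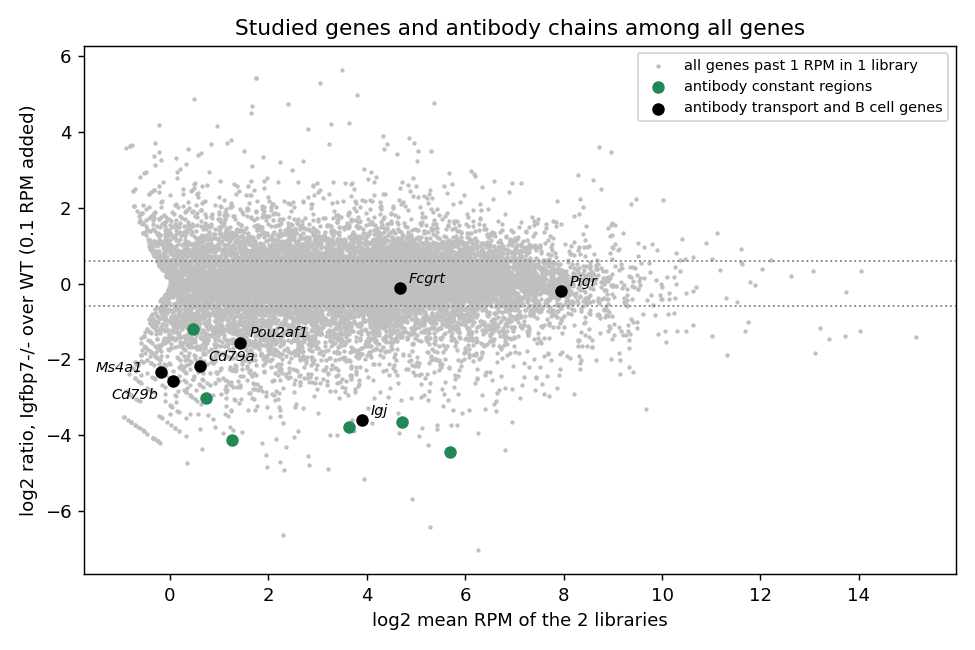
Log2 ratio of *Igfbp7*-/- over WT (0.1 RPM added) against the log2 mean RPM of the 2 libraries for 14026 genes in grey, with the studied genes in black, antibody constant regions in green and dotted lines at 1.5 times. *Pigr* and *Fcgrt* lie between the lines, and *Igj* lies among the antibody chains near -3.61.

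The antibody chains themselves were measured on 231 rows for immunoglobulin heavy, kappa and lambda segments. Together they had 8542 reads in WT and 500 in *Igfbp7*-/-, or 249 against 14.3 RPM, which is 17.4-fold lower (15.3 to 19.9). Reads were found on 154 rows in WT and on 39 in *Igfbp7*-/-, with 37 rows in both. Over all genes, 19160 had reads in WT and 18910 in *Igfbp7*-/-. The 24 rows that reached the minimum were all lower, against 23.0% of all genes. However, 21 of the 24 reached it only through WT, so their call follows in part from the rule. Of all 231 rows, 2 had more reads in *Igfbp7*-/-. Variable segments are near copies of each other, and how the authors' counting shared reads among them was not given, so single variable rows are uncertain and sums are given here.

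Constant and variable segments were both lower, by folds whose intervals overlapped. The 10 constant rows summed to 6409 and 398 reads, 16.4-fold lower in *Igfbp7*-/- (14.2 to 19.1). The 199 variable rows summed to 2121 and 101 reads, 21.4-fold lower (16.0 to 28.7). Within the variable rows the fold was 25.1 for heavy, 19.4 for kappa and 21.7 for lambda segments. Of the variable rows 139 had reads in WT and 30 in *Igfbp7*-/-. These rows carried no RPKM, so levels are not compared between them.

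Among constant chains, the kappa light chain *Igk-C* had 3423 reads in WT and 157 in *Igfbp7*-/-, 22.2-fold lower (17.6 to 28.1). The IgA heavy chain, listed as *Igh-2*, had 1666 and 132 reads, or 48.5 and 3.77 RPM, 12.9-fold lower (10.01 to 16.8). The IgM heavy chain *Igh-6* had 802 and 56 reads, 14.6-fold lower (9.95 to 22.3). All 3 intervals lie far above 1.5, and those of IgA and IgM overlap. IgG1 (*Ighg1*) differed least, with 68 and 28 reads, a 2.48-fold difference (1.29 to 5.0). The IgG2c row *Igh-1b* had 50 reads in WT and 0 in *Igfbp7*-/-. Its WT level was 17.0 times that of 3 reads, taken as the floor of the library. The counting interval gave a lower limit of 6.42-fold for the difference.

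The makeup of the heavy chains could be compared within each library, as a share of the reads on heavy constant rows. IgA took 58.5% of 2850 reads in WT (Clopper-Pearson interval 55.8 to 61.0) and 56.9% of 232 reads in *Igfbp7*-/- (47.4 to 66.1). IgM took 28.1% (25.8 to 30.6) and 24.1% (16.7 to 33.0). The shares of both had overlapping intervals. IgG1 took 2.39% in WT (1.66 to 3.32) and 12.1% in *Igfbp7*-/- (6.76 to 19.4), the only one of the heavy chains whose intervals did not overlap. Shares of reads also depend on the length of each chain's transcript and are not shares of cells.

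**Figure D3:**
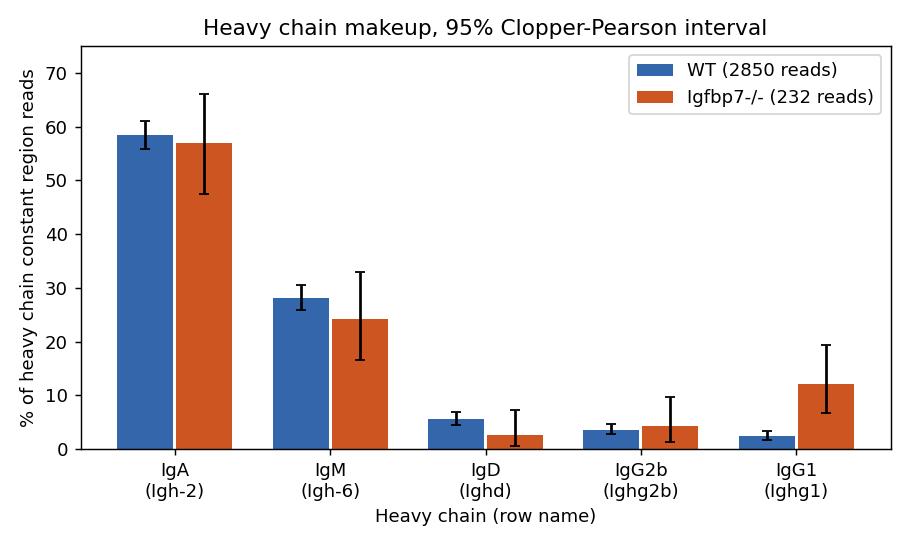
Share of heavy chain constant region reads on 5 heavy chain rows in WT (blue, 2850 reads) and *Igfbp7*-/- (orange, 232 reads), with 95% Clopper-Pearson intervals on read pairs and without *Igh-1b*. IgA is 58.5% and 56.9%, IgM 28.1% and 24.1%, and IgG1 2.39% and 12.1%.

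The ratio of *Igj* to the IgA heavy chain was close in both libraries. There were 0.571 reads of *Igj* per read of *Igh-2* in WT and 0.576 in *Igfbp7*-/-, the second being 1.01 times the first (0.647 to 1.55). Against the IgM heavy chain it was 1.14 times (0.670 to 1.97), and against *Igk-C* 1.74 times (1.13 to 2.62). Against *Pou2af1* it was 0.243 times (0.132 to 0.455), and against *Cd79a* 0.414 times (0.171 to 0.981). Thus *Igj* was lower by more than *Pou2af1* and, with an interval reaching nearly 1, than *Cd79a*. These pairs too were chosen after the values were seen.

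*Cd79a* and *Cd79b*, the signalling chains of the B cell receptor, were both low in reads. *Cd79a* (plus strand, chr7:25682400-25687216) had 88 reads in WT and 17 in *Igfbp7*-/-, or 2.56 RPM (1.86 to 3.44) against 0.485 RPM (0.235 to 0.976). This was a 5.28-fold difference (2.40 to 11.6) with a log2 ratio of -2.19. *Cd79b* (minus strand, chr11:106172655-106176076) had 64 and 8 reads, or 1.86 RPM (1.28 to 2.63) against 0.228 RPM (0.0622 to 0.585), an 8.16-fold difference (2.89 to 31.8) with a log2 ratio of -2.58. The products form a heterodimer, and the ratio of *Cd79a* to *Cd79b* was 1.55 times as high in *Igfbp7*-/- with an interval from 0.409 to 7.88, too wide to show equal or unequal change.

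*Ms4a1* (minus strand, chr19:11324654-11340669), the CD20 gene of mature B cells, had 53 reads in WT and 8 in *Igfbp7*-/-. Its level was 1.54 RPM (1.04 to 2.29) against 0.228 RPM (0.0622 to 0.585), a 6.76-fold difference (2.40 to 27.1) with a log2 ratio of -2.32. It overlaps *4930526L06Rik* on the plus strand. *Pou2af1* (plus strand, chr9:51021795-51048184), the octamer coactivator, had 140 and 46 reads, or 4.08 RPM (3.18 to 5.15) against 1.31 RPM (0.833 to 1.97). Its difference of 3.10-fold (1.91 to 5.21) was the smallest of the 5, with a log2 ratio of -1.56. Per length, *Cd79a* (1.93 RPKM), *Pou2af1* (1.59), *Cd79b* (1.51) and *Ms4a1* (0.751) followed each other in WT, and each neighbouring pair had overlapping intervals. In *Igfbp7*-/- the order was *Igj* (1.03 RPKM), *Pou2af1* (0.512), *Cd79a* (0.366), *Cd79b* (0.185), *Ms4a1* (0.111) and *Ccr10* (0.0331), again with every neighbouring pair overlapping.

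**Figure D4:**
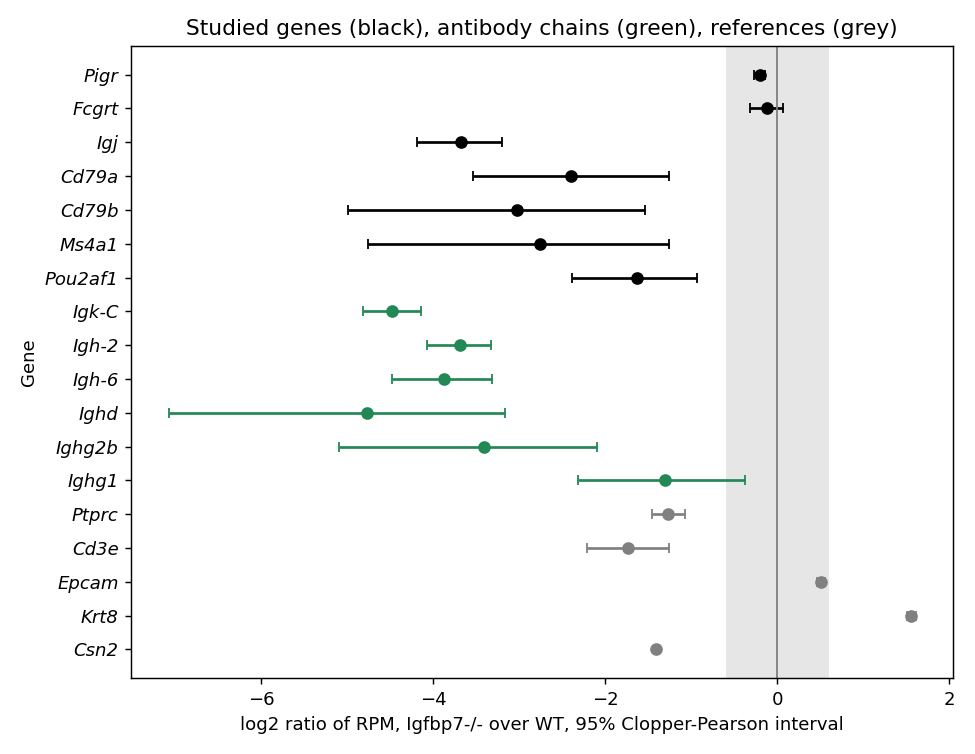
Log2 ratio of *Igfbp7*-/- over WT without an added RPM, with 95% Clopper-Pearson intervals on read pairs, for the studied genes (black), antibody constant chains (green) and reference genes (grey), and a grey band for 1.5 times. *Pigr* and *Fcgrt* lie in the band, the 5 B lineage genes and the antibody chains lie left of 0 with intervals that do not reach it, and *Krt8* lies to the right.

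The wider list of B cell genes held 35 genes, of which 34 had a row and 28 reached the minimum, 14 of these only through WT. Of the 28, 21 were lower, 3 higher and 4 within 1.5 times, with a median log2 ratio of -1.51. Without the 4 studied genes 17 of 24 were lower (70.8%), against 23.0% of all genes, with a median of -1.20. *Cd22*, an inhibitory coreceptor, had 115 and 20 reads, a 5.87-fold difference (3.00 to 13.0). *Pax5*, the factor that defines the B cell lineage, had 34 and 2 reads and did not reach the minimum. *Fcrla* (-3.64), *Cxcr5* (-3.10) and *Cd180* (-2.76) were among the lowest log2 ratios of the list.

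The 3 higher genes of this list were *Plcg2* (9.0 RPM in WT, 37.5 in *Igfbp7*-/-), *Bcl6* (99.3 and 235 RPM) and *Bach2* (31.5 and 48.3 RPM). *Bach2* lay near the threshold and was within 1.5 times when ratios were centred on their median or the 20 most abundant genes were left out, which left 2 higher genes. *Plcg2* encodes a phospholipase of receptor signalling, and *Bcl6* and *Bach2* encode repressors. These genes are also expressed outside B cells, as are several of the lower genes of the list. Because *Bcl6* is so abundant, the summed level of the list was higher in *Igfbp7*-/- (438 RPM) than in WT (356 RPM), opposite to its counts and median.

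Plasma cell genes were split. Of 16 listed genes, among them *Igj* and *Pou2af1*, 14 reached the minimum, with 9 lower, 0 higher and 5 within 1.5 times. The lower share was 64.3%, against 23.0% over all genes, and the median log2 ratio was -1.20. *Prdm1*, the factor that drives plasma cell formation, was 85.9 RPM in WT against 32.0 RPM in *Igfbp7*-/-. *Fkbp11*, a folding enzyme of secretory cells, was 68.1 and 9.42 RPM, and *Slamf7*, a surface receptor of plasma cells, 11.5 and 3.77 RPM. *Xbp1*, which expands the secretory apparatus in plasma cells and secretory epithelium alike, was 332 and 395 RPM, and *Irf4* was 11.4 and 13.5 RPM. Lower genes of this list, such as *Prdm1* and *Fkbp11*, are likewise not confined to plasma cells. *Xbp1*, *Irf4*, *Sdc1*, *Ell2* and *Creld2* were the 5 genes within 1.5 times, named after their values were seen. *Tnfrsf17*, which encodes the plasma cell survival receptor BCMA, had 2 reads in WT and 0 in *Igfbp7*-/-, and *2010001M09Rik*, an older symbol of *Mzb1*, had 14 and 0.

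Signals that support plasma cells and IgA switching had 20 listed genes, 12 of which reached the minimum, 1 only through WT. There were 7 lower genes (58.3%, against 23.0% over all genes), 1 higher gene and 4 within 1.5 times, with a median log2 ratio of -1.16. *Il10* was 35.7 RPM in WT against 3.51 RPM in *Igfbp7*-/-, *Cd40*, the receptor for T cell help, 10.5 and 1.91 RPM, and *Il6*, a plasma cell growth cytokine, 260 and 55.9 RPM. *Nos2* was 18.1 and 6.20 RPM. The 1 higher gene was *Il6ra* (35.2 and 66.4 RPM), which encodes the receptor of the same cytokine and was named after its values were seen. Other Fc receptors, carried mostly by myeloid and B cells, had 10 listed genes, of which 7 reached the minimum, 2 only through WT, and all 7 were lower, with a median of -1.74. *Fcgr4* (-3.50), *Fcgr1* (-3.15), *Fcer1g* (-2.37) and *Trim21* (-1.74), an antibody receptor of the cytosol, led this list, in contrast to *Fcgrt*.

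**Figure D5:**
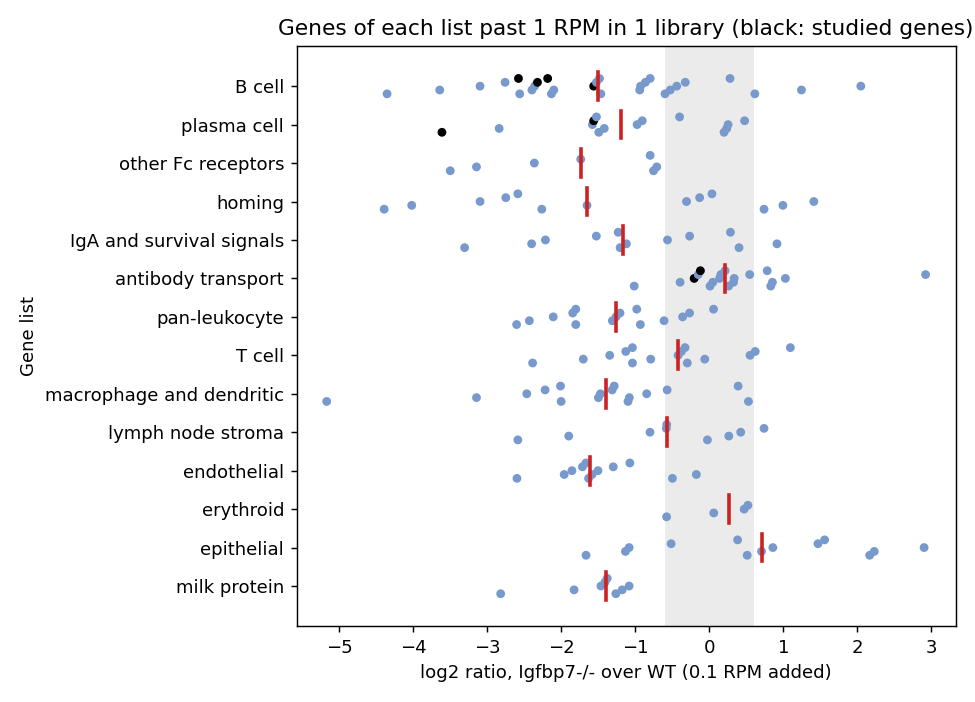
Log2 ratio of *Igfbp7*-/- over WT (0.1 RPM added) for each gene that reached 1 RPM in 1 library, by list, with studied genes in black, other genes in blue, list medians as red lines and a grey band for 1.5 times. The B cell list has its median at -1.51, antibody transport at 0.21, pan-leukocyte at -1.26, endothelial at -1.61 and epithelial at 0.70.

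Most pan-leukocyte, macrophage and endothelial genes were lower as the B lineage genes were, and T cell genes were lower in part. Lymph node stroma, erythroid and epithelial genes were mixed or not lower. Over all genes 23.0% were lower and 21.4% higher. Of 15 pan-leukocyte genes 12 were lower and 0 higher, with a median log2 ratio of -1.26 and a summed level of 358 RPM in WT against 197 RPM in *Igfbp7*-/-. *Ptprc*, which encodes the CD45 used in the depletion, had 1492 and 633 reads, and both libraries thus held its transcript after the depletion. The study itself checked the depleted cells by flow cytometry. It reported that few still carried lineage markers and deemed their level insignificant. Of 15 T cell genes past the minimum 7 were lower (46.7%) and 2 higher (median -0.42, summed level 104 and 67.6 RPM). *Cd3e* had 324 and 99 reads. Of 16 macrophage and dendritic cell genes 13 were lower (median -1.39), although their sum was 731 and 764 RPM because *Cd14*, named after its values were seen, was 470 and 677 RPM. Of 12 endothelial genes 10 were lower (median -1.61, summed level 1966 and 689 RPM), and *Pecam1*, which encodes CD31, had 11072 and 3113 reads. Erythroid genes were within 1.5 times in 4 of 4, a count that rests on the scaling, since 3 were higher with listed genes as the total and 1 was lower without the 20 most abundant genes. Of lymph node stroma genes 3 of 9 were lower and 1 higher, or 5 lower without the 20 most abundant genes. All 8 milk protein genes were lower. Of 13 epithelial genes 7 were higher and 3 lower, with a median of 0.70. The minimum was reached only through WT by 3 macrophage and dendritic cell, 2 T cell, 1 pan-leukocyte and 1 lymph node stroma gene. It was reached only through *Igfbp7*-/- by 1 T cell gene. The part of these cell types in the difference of the B lineage genes was not tested.

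Set against *Ptprc*, the B lineage genes differed among themselves. Reads of *Igj* per read of *Ptprc* were 0.637 in WT and 0.12 in *Igfbp7*-/-, the second being 0.188 times the first (0.128 to 0.270). For *Cd79b* it was 0.295 times (0.0750 to 0.840). The intervals of *Cd79a*, 0.455 times (0.204 to 1.02), of *Ms4a1*, 0.356 times (0.0880 to 1.01), and of *Pou2af1*, 0.774 times (0.452 to 1.28), reached 1. *Igk-C* was 0.108 times (0.0826 to 0.142) and *Igh-2* 0.187 times (0.138 to 0.249). *Igk-C*, *Igh-2*, *Igj* and *Cd79b* were thus lower by more than *Ptprc*, while for *Cd79a*, *Ms4a1* and *Pou2af1* a difference beyond that of *Ptprc* was not detectable at this depth.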

How the data were processed

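RNA of lineage-depleted inguinal mammary cells at lactation day 3 was sequenced in 1 WT and 1 *Igfbp7*-/- library (2 rounds of poly(A) selection, SOLiD, paired ends). The authors aligned reads in GeneSifter with at most 3 mismatches and state that mitochondrial, ribosomal and small nuclear RNA was filtered out. Rows of ribosomal RNA still held 2.95% of reads in WT and 3.15% in *Igfbp7*-/-. The submitters' processing notes list Bowtie 0.12.3, SAMtools 0.1.15 and mm9, while the methods name a human build. The annotation, the rule for reads with several matches and the use of strand were not given in the sources used here. The authors deposited, per gene, read counts, RPM (per 1000000 reads of the library) and RPKM. Total reads were computed as count over RPM. Rows without a symbol (50 of 25860, 0.0408% and 0.0484% of reads) were left out, and 733 rows lacked RPKM.

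The log2 ratio of RPM was computed with a pseudocount of 0.1 RPM. With 1 library per genotype no test was run between genotypes. Intervals at 95% were exact Poisson for levels and Clopper-Pearson for ratios and shares, on counts divided by 2 and rounded up. They cover counting error only. A count of 3 reads, taken as the floor of a library, was 0.0874 RPM in WT against 0.0857 RPM in *Igfbp7*-/-. Ratios of 2 genes were compared between libraries as the plain quotient of their read ratios. The intervals of these came from the conditional odds ratio on counts divided by 2 and rounded up. Scripts ran in Python 3.11.15 with SciPy 1.17.1 and pandas 2.3.3 and were tested on simulated data.

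The genes and the 14 gene lists were chosen with earlier results of these data known. Named were the studied genes, the 4 genes of a list with the largest absolute log2 ratio past the minimum, the markers *Pax5*, *Cd22*, *Ptprc*, *Cd3e*, *Pecam1*, *Epcam*, *Krt8*, *Csn2*, *Igfbp7*, *B2m* and *Prdm1*, antibody rows, and the 3 genes nearest in level to *Pigr* and to *Igj*. A further gene that this rule names is not reported here. Other names are said in the text to be chosen after the values were seen. Alternatives changed the pseudocount, the minimum, the fold and the scaling.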

Additional observations from a re-analysis of the deposited data

How the results depend on the processing

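None of the 5 studied genes called lower changed direction, but the alternatives run could hardly have changed it. A pseudocount cannot turn the sign of a ratio. Under the other scalings the median log2 ratio over all genes lay between -0.11 and 0.23, against main ratios of -1.56 or lower for these genes. *Pigr* and *Fcgrt* were within 1.5 times in 13 of 13 settings, and *Igj* was lower in 13. The settings of the minimum, the fold and the interval rule left every log2 ratio unchanged. They therefore could not bring *Pigr* or *Fcgrt* past 1.5 times. Nor could a pseudocount, which only shrinks a ratio, since without one the log2 ratios were -0.21 and -0.12. Only scaling to another total or centring could. *Pou2af1* was lower in 12 and missed the minimum in 1, *Cd79a* and *Cd79b* were lower in 11 and missed it in 2, and *Ms4a1* was lower in 10 and missed it in 3. A pseudocount of 1 RPM brought the log2 ratio of *Igj* to -3.18, *Cd79a* to -1.26, *Cd79b* to -1.22 and *Ms4a1* to -1.05. Scaling to reads on listed genes gave -0.018 for *Pigr*, and leaving out the 20 most abundant genes gave -0.35. Scaling to listed genes other than ribosomal and small RNA, chosen after seeing the data, gave -0.0060 for *Pigr*, 0.078 for *Fcgrt* and 4583 higher genes in all. With no minimum 5279 genes were lower and 4741 higher in all. With a minimum of 10 RPM in 1 library these were 1672 and 1696, with 1 of the studied genes (*Igj*) and 2 of the B cell list lower. A minimum of 1 RPM in both libraries left 2 studied genes (*Igj* and *Pou2af1*) and 8 of the B cell list lower. Of the 28 genes of that list past the main minimum, 14 had reached it only through WT. A minimum mean of 1 RPM, chosen after seeing the data, left 4 studied genes and 17 of the B cell list. The share of all genes lower under either of these minima is not given here, so these counts have no background beside them. A fold of 2 gave 1936 lower and 1352 higher genes in all.

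No paired analysis was possible because each genotype had 1 library, and for the same reason no alternative left out a library. Depth limits *Ccr10*, *Cd79b* and *Ms4a1* most, with 2, 8 and 8 reads in the *Igfbp7*-/- library.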
